A study of Mus musculus with 6 samples.

Results

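Immediate early genes and heat shock genes were followed in back-skin epidermis of K14ΔNLef1 transgenic and wild type mice. The 36 listed genes comprise 23 immediate early and 13 heat shock genes, and a gene was taken as measured where the exon array held at least 1 probe set annotated to its symbol alone. This left 28 genes, 21 immediate early and 7 heat shock, of 11280 genes measured in all. Fosb, Dusp5, Hspa1b, Hspa8, Hsp90aa1, Hspb1, Hspd1 and Hspe1 were not analysed here. No filter on low values was applied, so all 28 were tested.

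The samples were unfractionated keratinocytes of female mice aged 9.5 weeks, of mixed C57BL6/CBA background, with 3 wild type and 3 K14ΔNLef1 samples named as biological replicates. K14ΔNLef1 mice express Lef1, a transcription factor of the Wnt pathway, in a form without its N-terminal part, from the keratin 14 promoter, which is active in the basal layer and the outer root sheath. Although the cells are called unfractionated, the labels also place RNA extraction after flow cytometric sorting. The label text names neither the way cells were detached from the skin nor the time this took. Lef1 lay between 5.81 and 7.02 in wild type and between 11.11 and 11.24 in K14ΔNLef1 samples, as log2 intensity, which fits the labels of all 6.

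Immediate early genes are transcribed within minutes of a growth factor signal, wounding, stretch or stress, without new protein synthesis. Their products include the AP-1 factors of the Fos and Jun families, zinc finger factors of the Egr and Klf families, and proteins that end the signal, such as the MAP kinase phosphatases of the Dusp family and the RNA decay factor Zfp36. Heat shock genes encode chaperones, which fold proteins or keep them soluble, and many are switched on by the factor Hsf1 when proteins unfold. Both groups are known to be induced while skin is dissociated into single cells, so their levels can reflect the handling of a sample as well as the state of the tissue.

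The promoter stretches below show matches to elements through which such genes are known to be induced, in members of both groups. Whether these sites act in the genes shown was not tested. RefSeq promoters of GRCm38.p6 were found for 17 of the 21 immediate early and 5 of the 7 heat shock genes, and the 250 bases before each start were searched on both strands. A gene was counted for a motif where any of its promoters held it. Genes with several promoters had more places to match: Egr2 had 5, Maff and Dnaja1 3 each, and Hsph1 and Dnajb1 2 each. Capitals mark the motif, which begins 58, 143, 104 and 124 bases before the start of transcription in the order shown, and each line reads in the direction of the gene.

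Zfp36, CArG box, chr7:28379247-28379316, minus strand: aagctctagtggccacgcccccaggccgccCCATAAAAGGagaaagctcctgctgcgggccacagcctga

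Dusp1, cyclic AMP response element, chr17:26508578-26508645, minus strand: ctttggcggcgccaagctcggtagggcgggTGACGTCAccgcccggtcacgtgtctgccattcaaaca

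Hspa1a, heat shock element, chr17:34972223-34972290, minus strand: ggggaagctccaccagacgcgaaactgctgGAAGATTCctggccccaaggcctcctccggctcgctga

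Dnaja1, heat shock element, chr4:40722314-40722381, plus strand: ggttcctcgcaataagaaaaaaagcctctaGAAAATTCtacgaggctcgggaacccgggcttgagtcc

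The CArG box, bound by serum response factor, was present in 2 of the 17 immediate early genes with a promoter, Zfp36 and Egr2, or 11.8%, against 1.62% of 27025 genes with a promoter. The cyclic AMP response element TGACGTCA was present in Dusp1 and Maff, again 11.8%, against 1.77% of all. A pair of facing heat shock units, written GAANNTTC or TTCNNGAA, occurred in 3 of the 5 heat shock genes with a promoter, Dnaja1, Hspa1a and Hsph1. It occurred in 14.5% of all genes with a promoter. It was also found in Egr2, Fosl2 and Jun. The pattern TGANTCA, a loose form of the AP-1 site with any middle base, was found in Zfp36l1 as TGATTCA and in Hspa5 as TGAGTCA. It occurred in 7.82% of all. The Egr motif GCGNGGGCG was found in Dusp2, Fosl2, Klf2, Maff, Zfp36 and Dnaja1 and in 5.33% of all. The 2 written heat shock forms can overlap each other, while TGACGTCA does not contain TGANTCA. Among the 9033 genes measured here with a promoter, the shares were 1.48% for the CArG box, 2.28% for TGACGTCA, 12.9% for the heat shock units, 7.09% for TGANTCA and 8.87% for the Egr motif. These matches describe letters within a short window.

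None of the 28 genes changed between the genotypes by the test across all genes. Fos and Zfp36 had the largest differences, with K14ΔNLef1 means 1.98-fold and 1.83-fold lower, and Ier3 had the largest difference upward, 1.35-fold. The test was limma's, two-sided, on the mean log2 intensity of a gene's probe sets, with Benjamini-Hochberg adjustment over 11280 genes and a threshold of 0.05. Of all genes, 1.16% passed it, 0.328% higher and 0.833% lower. Adjusted p of the 28 genes ran from 0.260 for Zfp36 to 0.999 for Egr3. At an unadjusted limma p under 0.05 there were 4 genes, Fos, Junb and Zfp36 with lower and Ier3 with higher means, where 11.8% of all genes lay under that value. In 22 of the 28 genes the K14ΔNLef1 mean was lower, against 57.2% of all genes. The median difference was -0.17 for both groups, against -0.054 over all genes. Of the 5640 genes whose mean intensity was above the median of all genes, 4178 were lower, with a median difference of -0.20. With arrays set to a common median the median over all genes moved to 0.055, a shift of more than 0.1. Those of the immediate early and heat shock genes moved to -0.061 and -0.064, and that of the genes above the median intensity to -0.090.

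Much of this lay on 1 array. K14ΔNLef1 replicate 1 had the lowest median intensity, 154.2 against 190.0 to 203.2 on the other 5 arrays, and the deficit was not even over genes. Among the 5640 genes whose mean intensity was above the median of all genes, values averaged 0.55 below the wild type mean on that array, while the 5640 dimmer genes averaged 0.048 above it. Of the genes measured here, 16 immediate early and all 7 heat shock genes belong to the brighter genes. The part of this array-wide pattern in the differences of single members was not tested. Differences are therefore also given without that array.

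**Figure D1:**
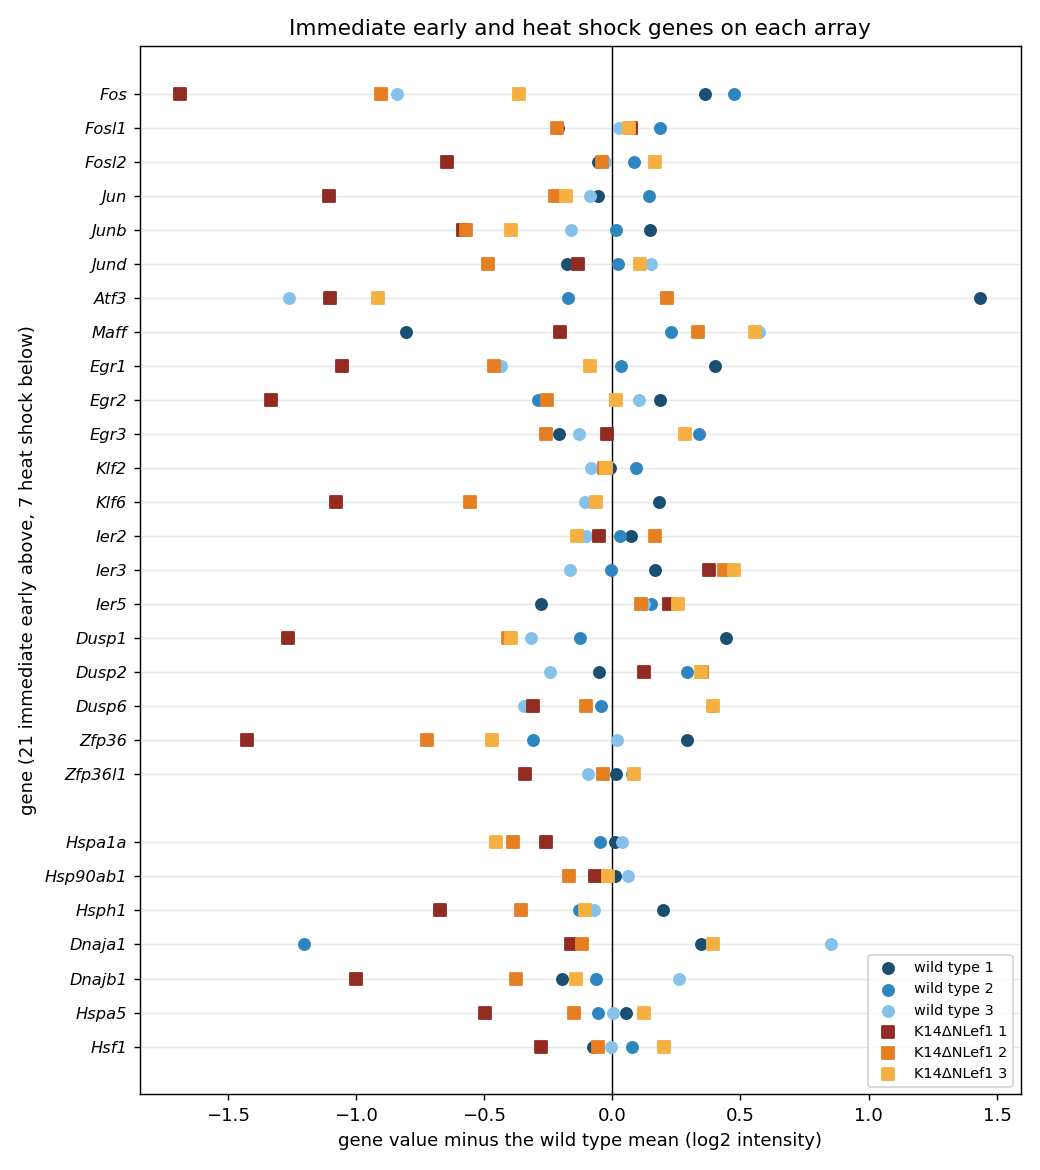
Value of each of the 28 genes on each of the 6 arrays, as log2 intensity minus the gene's wild type mean, with circles for wild type and squares for K14ΔNLef1 replicates. K14ΔNLef1 replicate 1 is the lowest square for Fos, at -1.69, while the wild type circles alone span 2.70 for Atf3.

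Among the AP-1 factors and their leucine zipper relatives, 7 of 8 had lower K14ΔNLef1 means, and none passed. Fos, the partner of Jun proteins that defines the induced form of AP-1, measured 9.34, 9.46 and 8.14 on wild type replicates 1, 2 and 3 and 7.29, 8.08 and 8.62 on K14ΔNLef1 replicates 1, 2 and 3. The genotypes overlap, since wild type replicate 3 lies below K14ΔNLef1 replicate 3. Fos differed by -0.98 (SE 0.43, limma adjusted p of 0.423), and by -0.63 (SE 0.41) without K14ΔNLef1 replicate 1. Its 5 probe sets were all lower, by 0.61 to 1.34 in size.

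Jun, the main partner of Fos, measured 9.25, 9.45 and 9.22 in wild type and 8.20, 9.09 and 9.13 in K14ΔNLef1 samples. All 3 transgenic values are below all wild type values, but replicates 2 and 3 only just. The difference of -0.50 (SE 0.27, limma adjusted p of 0.535) became -0.20 (SE 0.14) without K14ΔNLef1 replicate 1. Jun was read by 20 probe sets, of which 15 were lower.

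Junb, a Jun family member with a known role in restraining keratinocyte growth, measured 8.57, 8.44 and 8.26 in wild type and 7.84, 7.85 and 8.03 in K14ΔNLef1 samples. Here the transgenic samples lie close together and all below the wild type samples. Junb differed by -0.52 (SE 0.17, limma adjusted p of 0.286), and by -0.48 without K14ΔNLef1 replicate 1, nearly as large. Its 4 probe sets were uneven: the difference was -1.38 in one, while the other 3 had differences of -0.45, -0.15 and -0.084, and with the brighter probe sets alone the difference of Junb was -0.12.

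Atf3, a stress-induced factor of the same superfamily, varied most among the wild type samples. It measured 10.70, 9.09 and 8.001 in wild type and 8.16, 9.48 and 8.35 in K14ΔNLef1 samples. Wild type replicate 1 is the highest sample and wild type replicate 3 the lowest, with every transgenic value between them. A wild type range this wide, 2.70, was reached by 0.115% of all genes. The difference of -0.60 (SE 0.64) turned to 0.12 without wild type replicate 1.

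The remaining AP-1 relatives differed little. Fosl2 and Jund differed by -0.17 each (SE 0.23 and 0.21), and Fosl2 by 0.063 without K14ΔNLef1 replicate 1. Fosl1, a Fos relative known from migrating keratinocytes, differed by -0.026 (SE 0.19), which became positive with arrays set to a common median or quantile normalized. Maff, a small Maf factor, differed by 0.23 (SE 0.37), with wild type replicate 1 at 5.96 as its lowest value, and by -0.17 without that replicate.

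Of the 5 zinc finger factors, 4 had lower K14ΔNLef1 means, and Egr1, Egr2 and Klf6 had differences of similar size. Egr1, the classic serum-induced factor, measured 10.53, 10.16 and 9.69 in wild type and 9.07, 9.66 and 10.04 in K14ΔNLef1 samples. The genotypes overlap, with K14ΔNLef1 replicate 3 inside the wild type range. Egr1 differed by -0.53 (SE 0.30, limma adjusted p of 0.570), and by -0.27 without K14ΔNLef1 replicate 1. All 8 of its probe sets were lower.

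Egr2, its relative, measured 10.12, 9.64 and 10.03 in wild type and 8.60, 9.68 and 9.94 in K14ΔNLef1 samples. Only K14ΔNLef1 replicate 1 stands apart, and the difference of -0.52 (SE 0.34) became -0.12 without it. Klf6, a Krüppel-like factor induced by injury, measured 9.20, 8.94 and 8.91 in wild type and 7.94, 8.46 and 8.95 in K14ΔNLef1 samples. Replicates 1 and 2 of the transgenic samples are below all wild type samples and replicate 3 is not. Klf6 differed by -0.56 (SE 0.27), or -0.31 without K14ΔNLef1 replicate 1.

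Klf2 and Egr3 had nearly equal means in the 2 genotypes. Klf2, a factor best known from endothelium and resting T cells, measured 7.67, 7.77 and 7.59 in wild type and 7.65, 7.65 and 7.65 in K14ΔNLef1 samples, a difference of -0.026 (SE 0.16) whose sign turned with arrays set to a common median or quantile normalized. Egr3 averaged 6.46 in both genotypes, with an SD of 0.30 among wild type and 0.27 among K14ΔNLef1 samples.

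The feedback and RNA decay genes went both ways, with 5 of 8 lower and 3 higher. Zfp36, which binds AU-rich elements and speeds the decay of cytokine and immediate early messages, measured 8.80, 8.20 and 8.53 in wild type and 7.08, 7.79 and 8.04 in K14ΔNLef1 samples. Every transgenic value is below every wild type value. Its difference of -0.87 (SE 0.28) had the smallest p of the 28 genes (limma adjusted p of 0.260). The value was -0.60 (SE 0.21) without K14ΔNLef1 replicate 1. All 5 probe sets were lower.

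Dusp1, a phosphatase that switches off stress kinases, measured 10.88, 10.31 and 10.12 in wild type and 9.17, 10.03 and 10.04 in K14ΔNLef1 samples. The genotypes do not overlap, though wild type replicate 3 is within 0.1 of K14ΔNLef1 replicates 2 and 3. Dusp1 differed by -0.69 (SE 0.30, limma adjusted p of 0.424), and by -0.40 without K14ΔNLef1 replicate 1. All 6 of its probe sets were lower.

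Ier3, an immediate early gene linked to cell survival, went the other way. It measured 8.24, 8.07 and 7.91 in wild type and 8.45, 8.51 and 8.55 in K14ΔNLef1 samples, with no overlap. The difference of 0.43 (SE 0.17, limma adjusted p of 0.376) was 0.46 without K14ΔNLef1 replicate 1. Its 3 probe sets were uneven, with differences of 0.49, 0.73 and 0.072.

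Dusp2, a nuclear MAP kinase phosphatase, measured 6.66, 7.001 and 6.47 in wild type and 6.83, 7.06 and 7.05 in K14ΔNLef1 samples, a difference of 0.27 (SE 0.20) with overlapping genotypes. Ier5, which promotes Hsf1 activity, differed by 0.20 (SE 0.19). Zfp36l1, a relative of Zfp36, differed by -0.097 (SE 0.18), Ier2 by -0.0067 and Dusp6, an ERK phosphatase, by -0.0049. The sign of these last 3 turned with arrays set to a common median or quantile normalized.

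Of the heat shock genes 6 of 7 had lower K14ΔNLef1 means, none at an unadjusted limma p under 0.05. Hspa1a, the inducible cytosolic Hsp70, measured 12.10, 12.03 and 12.12 in wild type and 11.83, 11.70 and 11.63 in K14ΔNLef1 samples. Both groups were tight and did not overlap, and K14ΔNLef1 replicate 1 was the highest of the transgenic samples here. Hspa1a differed by -0.37 (SE 0.16, limma adjusted p of 0.435), and by -0.42 (SE 0.13) without that replicate. It was read by 1 probe set, and since Hspa1b is a near-identical copy, its value is uncertain as a value of Hspa1a alone.

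Dnajb1, the Hsp40 that delivers clients to Hsp70, measured 9.38, 9.52 and 9.84 in wild type and 8.58, 9.21 and 9.44 in K14ΔNLef1 samples. The genotypes overlap through K14ΔNLef1 replicate 3, and the difference of -0.50 (SE 0.26) became -0.26 without K14ΔNLef1 replicate 1. Hsph1, an Hsp110 that reloads Hsp70, measured 9.08, 8.75 and 8.81 in wild type and 8.21, 8.52 and 8.77 in K14ΔNLef1 samples. It differed by -0.38 (SE 0.21), or -0.23 without K14ΔNLef1 replicate 1, and 16 of its 19 probe sets were lower.

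Hsp90ab1, the constitutive cytosolic Hsp90, was nearly level, at 11.72, 11.64 and 11.77 in wild type and 11.64, 11.54 and 11.69 in K14ΔNLef1 samples. Its difference of -0.084 (SE 0.16) turned positive with arrays set to a common median or quantile normalized. Dnaja1, another Hsp40 and read by 1 probe set, measured 7.64, 6.09 and 8.15 in wild type and 7.13, 7.17 and 7.68 in K14ΔNLef1 samples. Wild type replicate 2 is the lowest of the 6, and without it the difference of 0.039 (SE 0.48) became -0.56.

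Outside the cytosol, the endoplasmic reticulum chaperone Hspa5 measured 10.33, 10.22 and 10.28 in wild type and 9.78, 10.13 and 10.40 in K14ΔNLef1 samples. Its difference of -0.17 (SE 0.20) was -0.012 without K14ΔNLef1 replicate 1. Hsf1, the factor that induces the heat shock genes, measured 8.37, 8.52 and 8.44 in wild type and 8.16, 8.38 and 8.64 in K14ΔNLef1 samples. K14ΔNLef1 replicate 1 lies below the wild type range, replicate 3 above it and replicate 2 inside it, and the difference of -0.044 (SE 0.19) turned positive with either rescaling of the arrays.

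**Figure D2:**
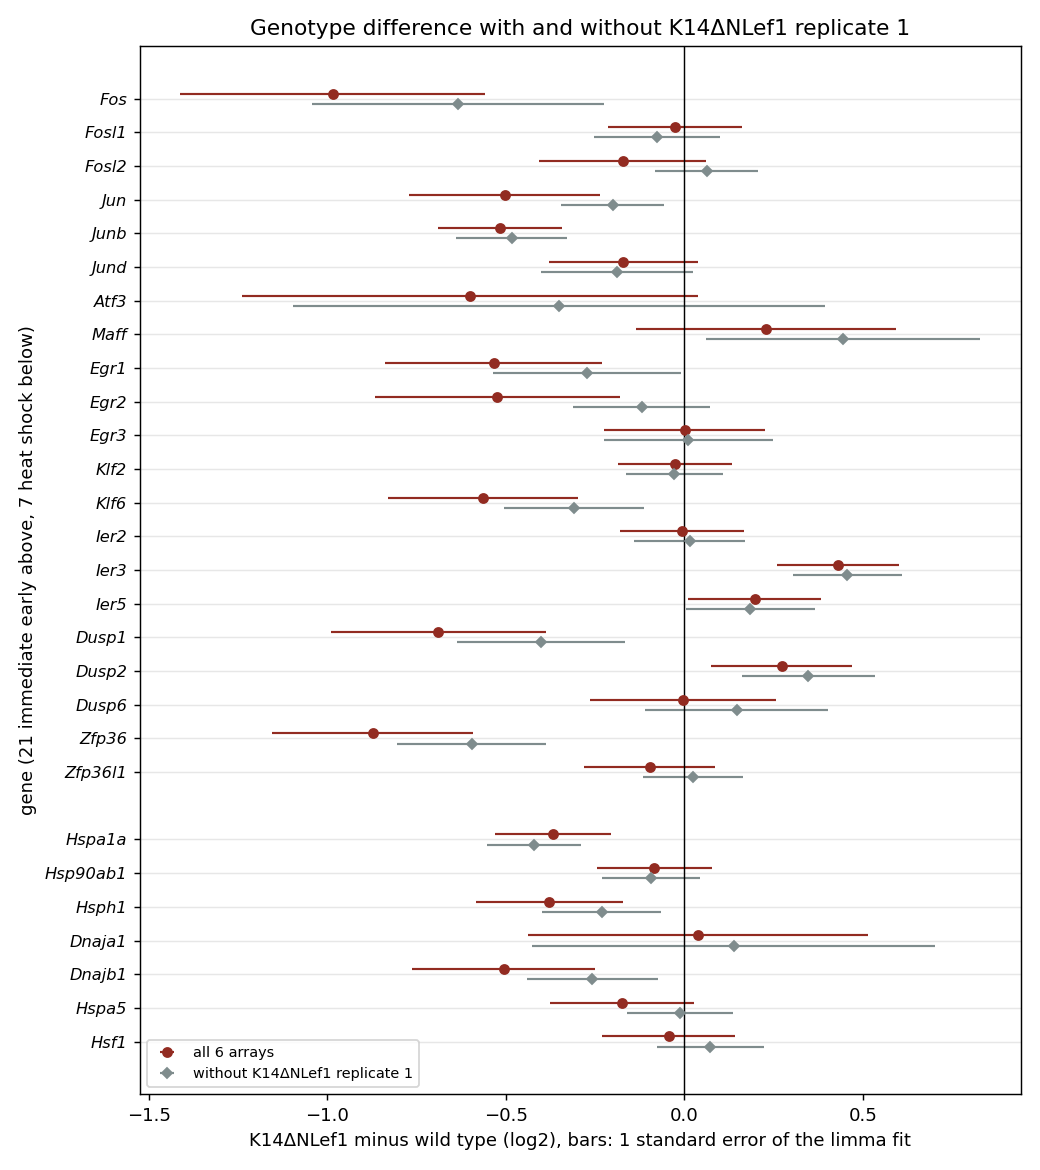
Difference between K14ΔNLef1 and wild type for each of the 28 genes (log2, with bars of 1 standard error of the limma fit), over all 6 arrays and without K14ΔNLef1 replicate 1. Fos moves from -0.98 to -0.63 and Egr2 from -0.52 to -0.12, while Junb, Ier3 and Hspa1a stay within 0.1 of their values.

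Genotypes did not overlap for 6 of the 28 genes, against 18.7% of all genes. Lower without overlap were Jun, Junb, Dusp1, Zfp36 and Hspa1a, where 11.8% of all genes were lower in this way, and higher was Ier3, where 6.91% of all genes were. All 6 belong to the brighter genes, of which 1010 of 5640 were lower in this way and 228 higher. Without K14ΔNLef1 replicate 1, 17 of the 28 genes had lower means, against 52.8% of all genes and 3188 of the 5640 brighter genes. Still none of the 28 passed, where 2.12% of all genes did. Junb, Zfp36, Hspa1a and Ier3 had an unadjusted limma p under 0.05 in that fit, where 14.6% of all genes did. With limma's array weights the same 4 genes passed, with adjusted p of 0.0231, 0.0264, 0.0476 and 0.0491, but so did 11.5% of all genes. Those weights gave K14ΔNLef1 replicate 2 a weight of 5.18 and replicate 1 a weight of 0.150. Over all alternatives the adjusted p of the 4 genes reached 0.831, 0.634, 0.833 and 0.833.

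Immediate early and heat shock genes had mean differences of similar size between the genotypes. The 21 immediate early genes averaged 8.47 ± 0.14 in wild type and 8.23 ± 0.28 in K14ΔNLef1 samples (SD, n = 3), a difference of -0.25. For the 7 heat shock genes these values were 9.75 ± 0.19 and 9.53 ± 0.21 (SD, n = 3), a difference of -0.22. Their contrast, immediate early minus heat shock, was -0.030, smaller than the SD of that contrast among wild type samples, 0.30. With Dnaja1 left out, the heat shock difference was -0.26, the contrast turned to 0.013 and its wild type SD was 0.18. As averages over chosen genes these carry no test. Over all genes the mean difference was -0.081, and over the brighter genes it was -0.21.

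By array, immediate early genes stood 0.55 below their wild type means on K14ΔNLef1 replicate 1, 0.17 below on replicate 2 and 0.013 below on replicate 3. Wild type replicate 3 was also low, with a mean deviation of -0.16, and replicates 1 and 2 were high, at 0.11 and 0.055. So K14ΔNLef1 replicate 3 lay above 1 of the 3 wild type samples. Heat shock genes deviated by -0.42, -0.23 and -0.000042 on K14ΔNLef1 replicates 1, 2 and 3 and by 0.050, -0.21 and 0.16 on wild type replicates 1, 2 and 3. Much of the wild type spread came from Dnaja1: the deviations of the other 6 genes averaged 0.00074, -0.049 and 0.048 on these replicates, and the medians of all 7 were 0.012, -0.063 and 0.038. Without K14ΔNLef1 replicate 1 the mean difference was -0.094 for immediate early and -0.11 for heat shock genes, against -0.035 for the brighter genes.

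**Figure D3:**
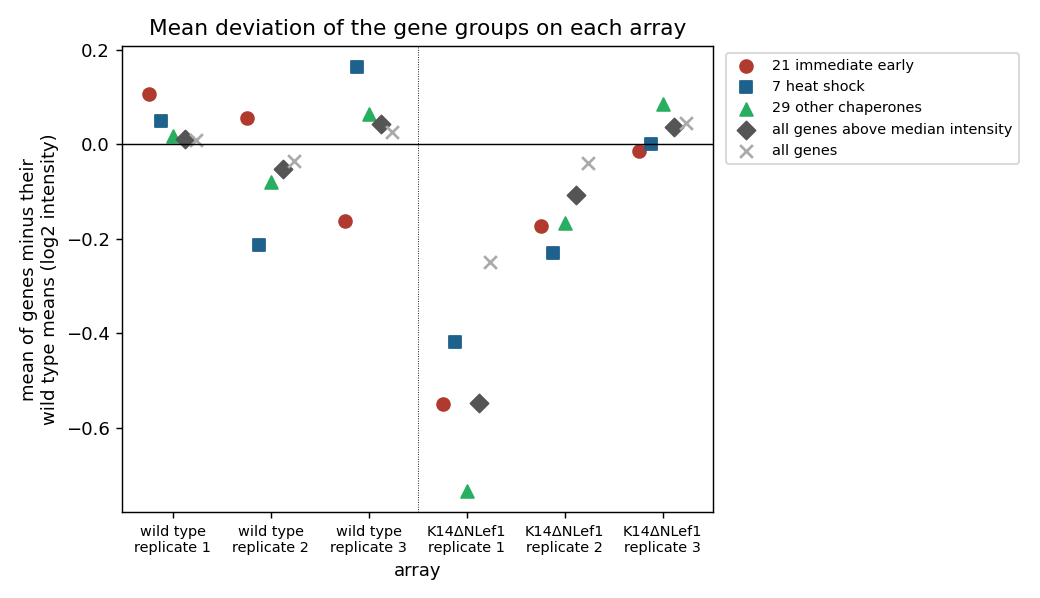
Mean deviation from the wild type means on each array, in log2 intensity, for the immediate early genes, the heat shock genes, 29 other chaperone genes, all genes above the median intensity and all genes. On K14ΔNLef1 replicate 1 the immediate early genes and the brighter genes both lie at -0.55, and on wild type replicate 3 the immediate early genes lie at -0.16 with the heat shock genes at 0.16, or 0.048 when Dnaja1 is left out.

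Among the 3 wild type samples, 13 of the 21 immediate early genes were lowest in replicate 3, against 26.8% of all genes, and 2 were highest there, Jund and Maff. None of the 7 heat shock genes was lowest in replicate 3, and 4 were highest there, against 39.2% of all genes. In replicate 2, 5 heat shock genes had their lowest wild type value, against 40.5% of all genes. Fos, Atf3, Maff and Dnaja1 each spanned over 1 log2 unit among the wild type samples, as 4.70% of all genes did. The median SD within wild type was 0.24 for immediate early genes, 0.076 for heat shock genes and 0.17 over all genes. These samples came from mice of 1 genotype, age and sex.

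Brightness separated the immediate early genes as well. The 16 brighter ones averaged 0.72 below their wild type means on K14ΔNLef1 replicate 1, where brighter genes in general averaged 0.55 below. The 5 dimmer ones, Fosl1, Maff, Egr3, Ier2 and Dusp2, averaged 0.015 below. Array brightness depends on the probes too and is no measure of RNA amount between genes. Without that replicate, the 16 brighter genes differed by -0.17 on average and 11 of the 16 were lower.

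The probe sets of the members gave no call either. Of 173 probe sets 126, or 72.8%, were lower in K14ΔNLef1 samples, against 57.5% of all probe sets, and 0 passed limma's adjusted threshold, as 0.19% of 109751 probe sets did. At an unadjusted limma p under 0.05 there were 13, where 8.13% of all probe sets lay. The smallest p of the 13 was that of the Junb probe set named above, 0.00147, with an adjusted p of 0.169. Hsph1 had the widest span, with probe set differences from -1.72 to 0.77. Where a probe set lies in its gene was not analysed here.

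**Figure D4:**
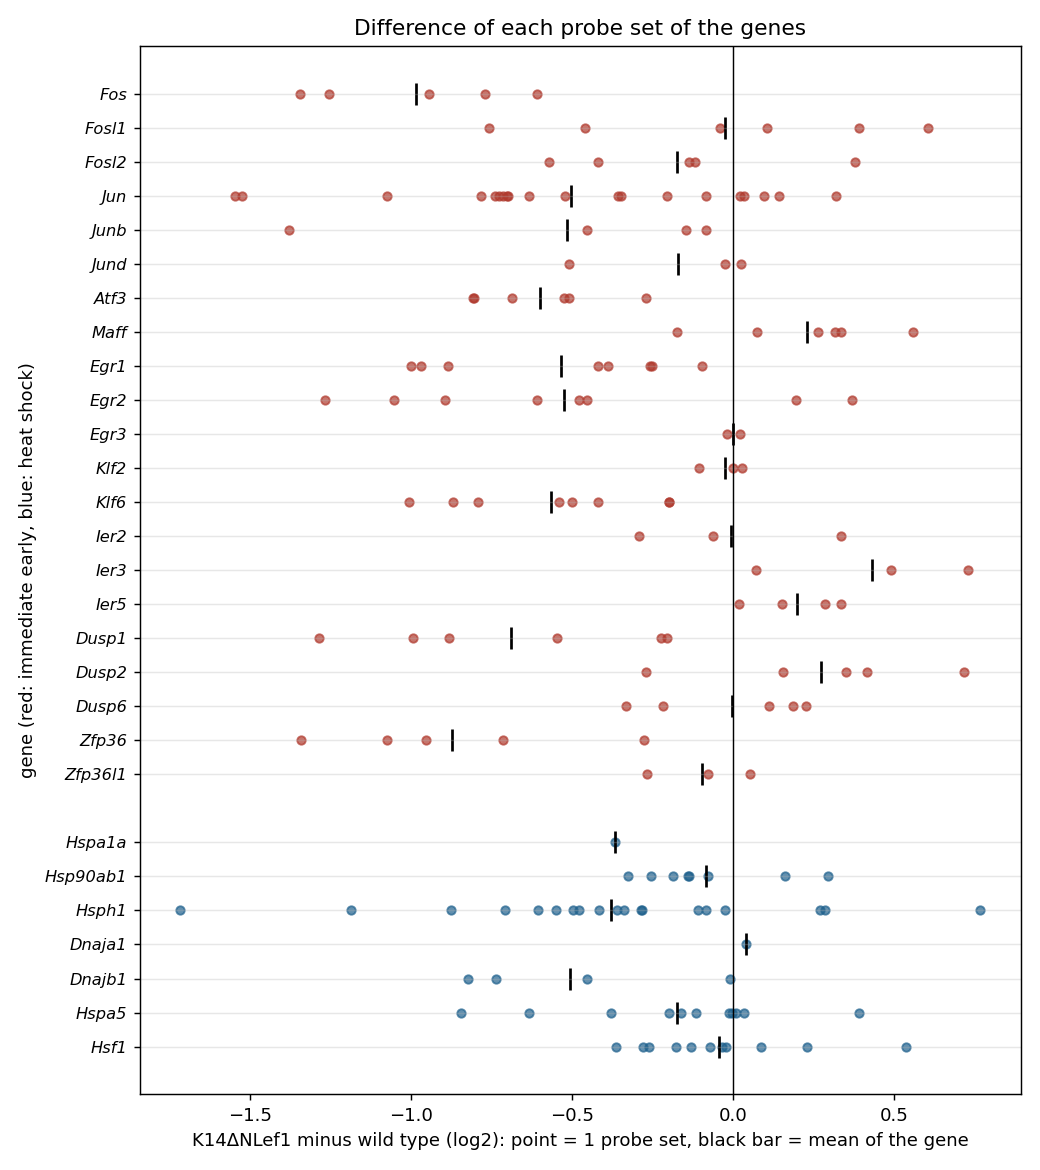
Difference between K14ΔNLef1 and wild type (log2) for each of the 173 probe sets of the 28 genes, with 1 point per probe set and a bar at the mean of the gene. All probe sets of Fos, Egr1, Klf6, Dusp1, Zfp36 and Atf3 lie below 0 and all of Ier3 and Ier5 above it, and 1 Junb probe set at -1.38 lies apart from the other 3.

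Other genes of the same responses were read in 5 lists. Beside the counts of lower means below, 57.2% of all genes were lower, and 4178 of the 5640 brighter genes. Median levels of the 5 lists, in the order given, were 7.45, 7.99, 9.05, 8.90 and 7.22, against 7.25 over all genes. Of 30 measured further rapid response genes, 22 had lower means and 1 passed, Ptgs2, the inducible cyclooxygenase of prostaglandin synthesis. Ptgs2 measured 7.64, 7.10 and 6.49 in wild type and 5.05, 5.09 and 5.20 in K14ΔNLef1 samples. It fell by 1.97 (SE 0.28, limma adjusted p of 0.0204, and 0.00160 to 0.0998 over the alternatives), and the difference was -1.94 without K14ΔNLef1 replicate 1. The 30 genes had a median difference of -0.15. As with the immediate early genes, many had their lowest wild type value in replicate 3, 14 of 30.

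None of 19 genes upstream, kinases and factors such as Srf, passed, and 13 were lower. The smallest p were those of Map2k4, a kinase of the stress pathway to Jun, with -0.90 (limma adjusted p of 0.183), and of Rps6ka1, an ERK-activated kinase, with -0.28 (limma adjusted p of 0.574).

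None of 29 further chaperones and partners passed, and 24 were lower. On K14ΔNLef1 replicate 1 their mean deviation was -0.73. Without that replicate 16 were lower, where 3188 of the 5640 brighter genes were. The mean difference of the 29 was then -0.041, against -0.27 with that replicate. Hsf2, a relative of Hsf1, measured 8.51, 8.13 and 8.60 in wild type and 5.98, 7.66 and 7.06 in K14ΔNLef1 samples. All 3 transgenic samples were lower, with a difference of -1.51 (SE 0.39, limma adjusted p of 0.152). It was -1.05 without K14ΔNLef1 replicate 1. Dnajb4, an Hsp40, differed by -0.73 (limma adjusted p of 0.295).

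None of 21 genes of the unfolded protein response passed, the pathway in which Hspa5 acts, and 15 were lower. Calr, a lectin chaperone, differed by -0.48 and Dnajb9, an Hspa5 partner, by -0.75 (limma adjusted p of 0.447 and 0.478). Nor did any of 10 oxidative and metal stress genes pass, 6 of them lower. The metallothionein genes Mt1 and Mt2, which bind zinc and copper, differed by -0.60 and -0.55 (limma adjusted p of 0.245 and 0.542). At an unadjusted limma p under 0.05 these 5 lists held 8, 1, 3, 0 and 1 of their 30, 19, 29, 21 and 10 genes, where 11.8% of all genes lay under that value.

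Markers of the labelled cell type and of other skin cells were read as lists, without a threshold for expression. The lists are not fully separate, since Thy1 is in both the T cell and the fibroblast list. Of 11 measured keratinocyte markers, 9 had lower K14ΔNLef1 means, and 8 without K14ΔNLef1 replicate 1. Their median level was 11.2, and of the 5640 brighter genes 4178 were lower, or 3188 without that replicate. Krt14, Krt5, Krt10 and Krt15 averaged over 12 in both genotypes, and the list deviated by -0.65, -0.15 and 0.022 on K14ΔNLef1 replicates 1, 2 and 3. All 7 measured T cell markers of 12 listed had higher K14ΔNLef1 means, with mean levels of 7.96 to 8.71 over wild type and 8.11 to 9.75 over K14ΔNLef1 samples. T cell markers deviated by -0.16, 1.48 and 0.84 on K14ΔNLef1 replicates 1, 2 and 3, and Langerhans cell markers, 10 of 11 higher, by -0.045, 1.505 and 0.78. Their mean levels were 6.77 to 7.70 over wild type and 7.18 to 8.73 over K14ΔNLef1 samples. Immediate early genes are also expressed in these cells, and the part of cell composition in the values above was not tested. Fibroblast markers were 10 of 11 higher, melanocyte markers 5 of 7 and endothelial and muscle markers 6 of 9. Higher means were found for 3368 of the 5640 dimmer genes and for 4830 of all 11280 genes. Median levels of the fibroblast, melanocyte and endothelial and muscle lists were 6.34, 6.76 and 5.90, against 7.25 over all genes. Their mean differences were 0.20, 0.27 and 0.22, which were 0.20, 0.40 and 0.11 without K14ΔNLef1 replicate 1. Without that replicate the T cell and Langerhans cell lists differed by 1.16 and 1.14, against 0.72 and 0.75 with it. In a bulk sample, fewer cells of a type and less RNA per cell cannot be told apart.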

How the data were processed

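The deposited values were linear probe set intensities from 6 mouse exon arrays, and RMA, Affymetrix Power Tools and mm9 are named per the submitters' processing notes. Tool versions are not given in the sources used here. RNA was amplified before labelling, per the labels' protocols. Of 114330 probe sets, 109751 had 1 gene symbol, 834 several and 3745 none listed; only the first kind was used, and 1228 older symbols were updated. A gene's value was the mean log2 of the deposited intensities of its probe sets, with no filter. Genotypes were compared by limma (version 3.58.1, R version 4.3.3), with lmFit, then eBayes (Benjamini-Hochberg over 11280 genes, threshold 0.05). With 3 arrays a genotype, precision is limited by their number: on simulated data of these 11280 genes, 29.9% of genes changed by log2 1, 85.1% by 2 and 97.0% by 3 passed.

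The members, the lists of related genes and the marker lists were chosen with earlier results of these data known. Every measured member is named; each array's value is given for Fos, Jun, Egr1, Atf3, Hspa1a and Hsf1 and for up to 4 members a role with the largest differences. Dnaja1 and Hspa5 were added to these after their values were seen. Of each related list the text names the genes that passed or, where none did, the 2 with the smallest p. Alternatives changed the scaling, the probe set summary, the weights, the block and the arrays used. The labels state no pairs, and samples with the same replicate number did not deviate together (correlations of -0.16, -0.17 and 0.036 over genes). Sample numbers in the labels are adjacent between genotypes, and for these the correlations were 0.20, -0.075 and -0.0067.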

Additional observations from a re-analysis of the deposited data

How the results depend on the processing

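Over 16 alternatives, none of the 28 genes passed except with array weights, where 4 did. The count of all genes that passed, 131 in the full analysis, was 1296 with array weights, 236 with arrays set to a common median, 201 with quantile normalization, 238 with quantile normalization and K14ΔNLef1 replicate 1 left out, and 28 to 239 with 1 array left out, 239 of them without K14ΔNLef1 replicate 1. It was 75 with the replicate number as a block, and no member passed there; samples share only a number, and adjacent sample numbers as a block gave 91 genes and no member.

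The mean difference kept its sign in every alternative, from -0.36 to -0.086 for immediate early and from -0.32 to -0.090 for heat shock genes. Their contrast of -0.030 turned to 0.056 with array weights and to 0.0076 with quantile normalization and K14ΔNLef1 replicate 1 left out, and ran from -0.19 to 0.10 with 1 array left out. It was 0.013 with Dnaja1 left out, an alternative chosen after seeing the data. Of 448 differences of members under the alternatives, 51 had the other sign, and 14 members never changed sign.

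The differences with the other sign are given by alternative. With K14ΔNLef1 replicate 1 left out and quantile normalization, they were Fosl2 0.093, Egr3 -0.033, Dusp6 0.16, Zfp36l1 0.073, Hspa5 0.030 and Hsf1 0.086. With array weights they were Atf3 0.070, Egr3 -0.19, Ier2 0.13 and Dnaja1 -0.11. With a common median they were Fosl1 0.083, Klf2 0.083, Ier2 0.10, Dusp6 0.10, Zfp36l1 0.012, Hsp90ab1 0.025 and Hsf1 0.065, and with quantile normalization Fosl1 0.080, Klf2 0.097, Ier2 0.080, Dusp6 0.13, Zfp36l1 0.067, Hsp90ab1 0.019 and Hsf1 0.10. Brighter probe sets alone gave Fosl1 0.15, Dusp6 0.17 and Hsf1 0.046, and the median of probe sets Fosl1 0.13, Jund 0.068, Hsp90ab1 0.013 and Hsf1 0.079. With 1 array left out, the differences that changed sign ran from -0.13 to 0.069 for Fosl1, -0.34 to 0.063 for Fosl2, -1.23 to 0.12 for Atf3, -0.17 to 0.52 for Maff, -0.14 to 0.17 for Egr3, -0.067 to 0.020 for Klf2, -0.094 to 0.059 for Ier2, -0.20 to 0.19 for Dusp6, -0.19 to 0.024 for Zfp36l1, -0.56 to 0.47 for Dnaja1 and -0.17 to 0.073 for Hsf1. The cause of these changes was not tested.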
